A study of Mus musculus with 9 samples.

Results

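The 677 coding-sequence (CDS) peaks described here are places in messenger RNA where tags of the RNA-binding protein Mbnl2 piled up inside protein-coding exons of the mouse hippocampus. They are the rows of the authors' peak list whose region annotation is exactly CDS, out of 10407 peaks in all, and they lie in 581 genes. Another 51 peaks carry the mixed annotation CDS with 3'UTR (3' untranslated region), 50 CDS with 5'UTR and 4 all of these; they are not counted as CDS peaks. Tags came from crosslinking and immunoprecipitation (CLIP), in which ultraviolet light fixes a protein to the RNA it touches and the short RNA pieces pulled down with the protein are sequenced.

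The CLIP libraries were 3 from wild-type animals, labelled as hippocampus of female mice on a mixed C57BL/6 and 129 SvlmJ background, given as 3 months in one label and 11 to 12 weeks in another. They held 159144, 209430 and 334857 unique tags (libraries 1, 2 and 3). For one comparison, the authors' list of cassette exons that changed in the Mbnl2 knockout was used. Its RNA-seq calls came from 3 wild-type and 3 Mbnl2 knockout hippocampi (delta-E2/delta-E2), from female mice of 2 to 3 months on the same background. The list also holds exons called by a splicing array, whose samples are not among those described here. The series' design text calls the CLIP mice BL6, and the labels do not say whether each CLIP library came from 1 animal. There is no knockout, input or control-antibody CLIP library among the samples, and no tag count was divided by the amount of its transcript, so a peak's level mixes binding, abundance and background.

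Tags on the Y chromosome were present in CLIP libraries labelled female. Libraries 1, 2 and 3 held 31, 49 and 86 tags on the Y chromosome, or 195, 234 and 257 tags per 1000000 unique tags (CPM). Ddx3y, a Y-linked RNA helicase gene, carried 1 of the CDS peaks, at 12.6, 9.55 and 2.99 CPM in libraries 1, 2 and 3 (2, 2 and 1 tags). The list held no peak named Xist, the RNA of the inactive X chromosome. Tags over Xist were not counted, so this does not show that Xist RNA was absent. Ddx3y has a close copy on the X chromosome, Ddx3x, and tags of one could be placed on the other. No comparison below is between sexes.

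Muscleblind-like proteins, of which Mbnl2 is the main one studied in brain, bind RNA through zinc fingers that favour a GC step between pyrimidines. They are known for steering alternative splicing from sites in and around exons, and for sites in 3'UTRs that affect where a transcript is placed in the cell and how stable it is. In myotonic dystrophy they are trapped on expanded CUG or CCUG repeats. Sites in coding sequence are the least described of these, which is why their heights, support and neighbours are given here. Peak positions are on mm9 and are printed as numbered in the authors' list, from 1.

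The peaks in coding sequence were led by Fth1, the ferritin heavy chain that stores iron, with Thy1, Hspa8 and Mtap1a among the next. At the Fth1 peak, at a single base on chromosome 19 (10059432), libraries 1, 2 and 3 held 39, 50 and 64 tags. Its height, the number of tags over the peak in the pooled libraries, was 153. The tags come to 245, 239 and 191 CPM, or 225 ± 29.5 CPM (SD, n = 3). The next highest CDS peak in libraries 2 and 3 was that of Thy1, at 115 and 86.6 CPM. Fth1 has processed copies elsewhere in the genome, and the labels do not say how tags shared by such copies were placed.

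Thy1, a glycoprotein anchored in the neuronal membrane, had its CDS peak on chromosome 9 at 43855482. It held 15, 24 and 29 tags, or 94.3, 115 and 86.6 CPM, close together in all 3 libraries (98.5 ± 14.5 CPM, SD, n = 3).

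Hspa8, the constitutive heat-shock cognate chaperone, was less even. Its peak on chromosome 9 (40610949 to 40610959) held 24, 13 and 12 tags, or 151, 62.1 and 35.8 CPM (82.9 ± 60.2, SD, n = 3). Library 1 was the highest and library 3 the lowest, although library 3 was sequenced deepest. Hspa8 also has processed copies in the genome.

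Mtap1a (current symbol Map1a), a microtubule-associated protein, had 81.7, 85.9 and 38.8 CPM at 121131584 on chromosome 2. Centg1 (Agap2), an Arf GTPase-activating protein of neurons, had 50.3, 71.6 and 50.8 CPM (57.6 ± 12.2, SD, n = 3) on chromosome 10 at 126525308. Nckap1, a subunit of the WAVE complex that drives actin branching, had 50.3, 62.1 and 41.8 CPM on chromosome 2 (80341498 to 80341500). Wasf1, the WAVE protein itself, carried 2 CDS peaks, of height 24 and 19.

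Nisch, which encodes nischarin, an integrin-binding protein, was the most even of the 20 highest peaks, with 44.0, 52.5 and 47.8 CPM (48.1 ± 4.28, SD, n = 3) on chromosome 14 (31989764 to 31989765). Others among the 20 highest lay in Gsk3a (a kinase), Cpe (a neuropeptide-processing carboxypeptidase), March6 (a ubiquitin ligase of the endoplasmic reticulum), Pclo (a presynaptic scaffold), Tmem30a (a flippase subunit), Wac, Celsr2 (an adhesion receptor), BC023814, Actb (beta-actin) and Ptprz1 (a receptor phosphatase). Their means ran from 38.0 ± 9.57 CPM for BC023814 to 51.4 ± 21.1 for Cpe (SD, n = 3). All 20 peaks had tags in every library, and the SD over libraries was between 8.89% and 72.7% of the mean, with a median of 33.1%. Library 1 was the highest at 10 of them, library 2 at 7 and library 3 at 3, although library 1 was the shallowest.

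**Figure D1:**
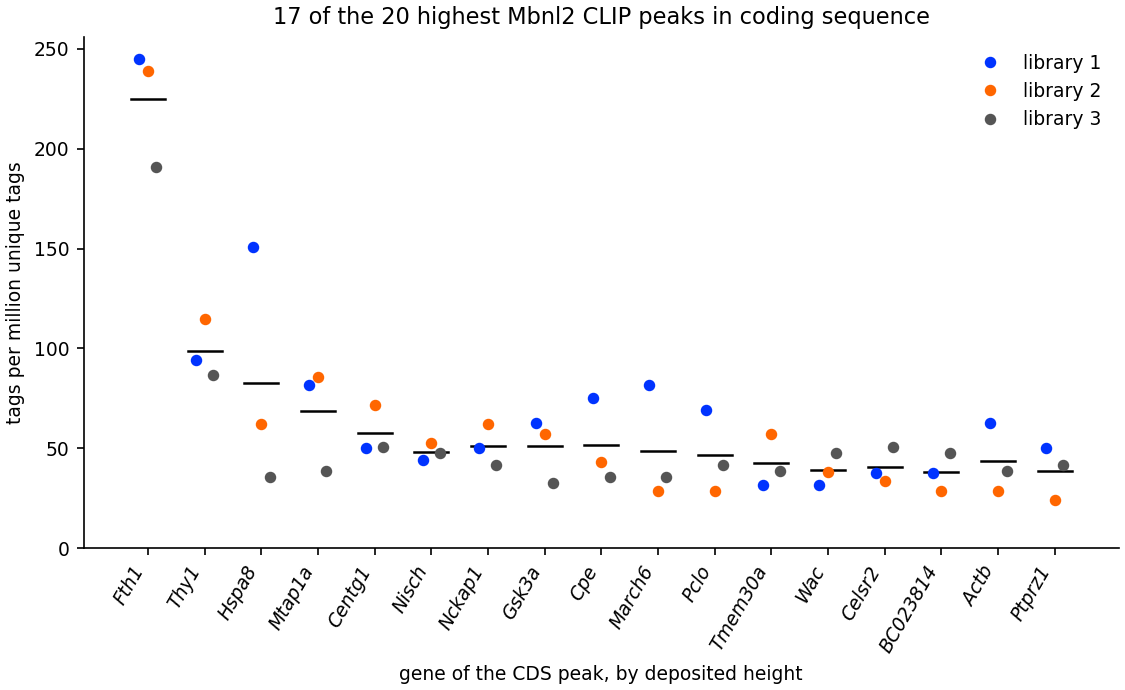
CPM (vertical axis) at 17 of the 20 highest CDS peaks (horizontal axis, by gene, in order of deposited height). Points are the 3 CLIP libraries and the bar is their mean; Fth1 stands apart at 225 CPM, Nisch is the tightest, and Hspa8 spreads the most with library 1 on top.

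Below these, most CDS peaks were low. Height had a median of 6 tags, with quartiles of 4 and 9 and a range of 3 to 153. Only 157 of the 677 peaks (23.2%) reached 10 tags, against 29.5% of all peaks, 44.7% of 3'UTR peaks and 5.71% of intron peaks. The 20 highest peaks held 15.7% of all tags counted at CDS peaks. Peaks on the plus strand numbered 340 and on the minus strand 337, and 2 tags on the opposite strand were seen against 5645 on the strand of the peak.

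CDS peaks held 1382, 1690 and 2573 tags in libraries 1, 2 and 3, which is 5.25 ± 0.226% of the tags at peaks (SD, n = 3), against 75.1 ± 1.09% for 3'UTR peaks. The level of a typical CDS peak lay below that of a typical 3'UTR peak in every library. The median of log2(CPM + 5) over CDS peaks was lower than over 3'UTR peaks by 0.64, 0.41 and 0.28 in libraries 1, 2 and 3, with class means of 3.72 ± 0.20 and 4.16 ± 0.10 (SD, n = 3). A two-sided exact sign-flip permutation test over the 3 libraries gave p = 0.25, the smallest this design allows, so it cannot pass a threshold (adjusted p = 0.5 over 2 comparisons). Against introns, with a class mean of 3.41 ± 0.11, the CDS median was equal in library 1 and higher by 0.57 and 0.35 in libraries 2 and 3 (same exact test, p = 0.5, adjusted p = 0.5). When tags were assigned by their centre, both differences were 0. Median widths were 11 nt for CDS, 7 nt for 3'UTR and 20 nt for intron peaks, so that count depends on width as well as level. At the Fth1 peak, 1 nt wide, 2, 2 and 5 of the 39, 50 and 64 tags had their centre in it. At the Hspa8 peak, 11 nt wide, it was 14, 9 and 5 of 24, 13 and 12. No conclusion on levels is drawn from this setting. At height 10 or more the differences from 3'UTR and intron peaks shrank to -0.25 and 0.059, and without library 2 the difference from introns was 0.17.

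Most CDS peaks rested on more than 1 library. All 3 libraries had tags at 438 of the 677 peaks (64.7%, 95% exact Clopper-Pearson interval 61.0 to 68.3%). Over all 10407 peaks the share was 64.2%, so that of CDS peaks is near the background. Intervals hold counting error over peaks alone. They treat peaks as separate, although all rest on the same 3 libraries of unequal depth and were called on the pooled tags. Tags of exactly 2 libraries were found at 213 CDS peaks and tags of 1 library at 26. At 60 peaks (8.86%), 1 library gave at least 80% of the tags, near the 7.80% over all peaks. The share was 4.20% for 3'UTR and 13.9% for intron peaks.

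Support followed height. Among CDS peaks of height 2 to 4, 51 of 181 (28.2%, interval 21.8 to 35.3%) had tags in all libraries, near the 28.5% over all peaks. The share was 38.9% for 3'UTR and 25.2% for intron peaks. At height 5 to 9 the CDS share was 235 of 339 (69.3%, interval 64.1 to 74.2%), with 69.3% for all, 71.4% for 3'UTR and 63.0% for intron peaks. The CDS share rose to 121 of 126 at height 10 to 19 (96.0%) and to all 31 peaks at height 20 or more. Over all peaks it was 93.5% and 99.9% at these heights. At heights of 5 to 9 and 10 to 19 the 3'UTR share (93.6% in the latter) lay inside the interval of the CDS share, while at 2 to 4 it lay above it. The intervals do not cover the spread between the 3 libraries, so this is a description and no test between classes.

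**Figure D2:**
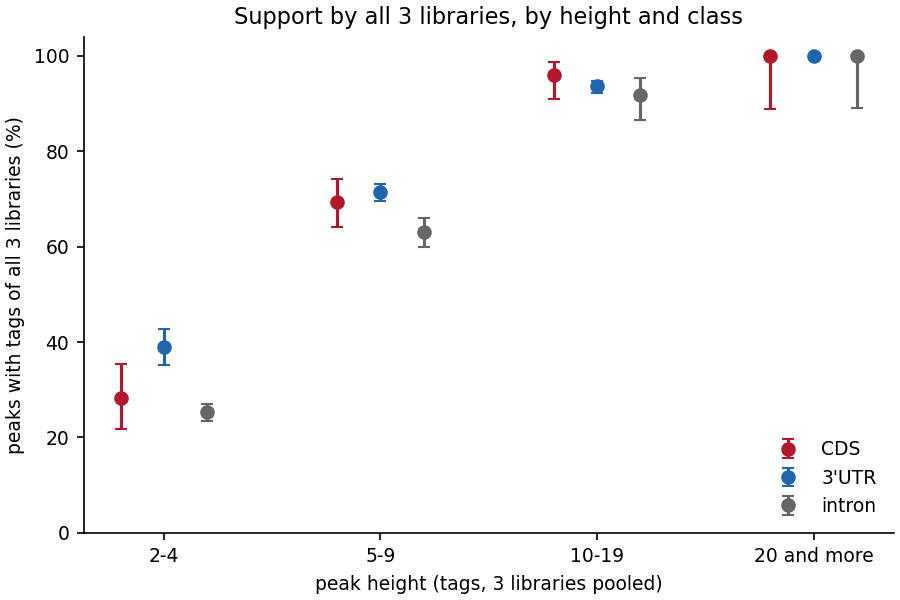
Share of peaks with tags of all 3 libraries (vertical axis, %) by peak height in tags (horizontal axis) for CDS, 3'UTR and intron peaks. Points are shares and bars 95% exact intervals; the CDS share goes from 28.2% at height 2 to 4 to 100% at height 20 and more.

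Support also went with depth. Library 1 had a tag at 75.9% of the CDS peaks, library 2 at 87.0% and library 3, the deepest, at 97.9%. A CDS peak had a median of 1, 2 and 3 tags in libraries 1, 2 and 3. The 5 highest CDS peaks that lacked tags of a library all lacked those of library 1. The highest of them was in Erbb2ip (Erbin), a scaffold of receptor tyrosine kinases, with 0, 7 and 10 tags, followed by R3hdm2 with 0, 6 and 9, Ankrd46 with 0, 5 and 9, and second peaks in Nisch and Nckap1. A count of 0 in library 1 still allows up to 18.9 CPM (3 tags), while these peaks had at most 33.4 CPM in another library. Across the 677 CDS peaks, Pearson's r of log2(CPM + 5) was 0.31 for libraries 1 and 2, 0.33 for libraries 1 and 3, and 0.43 for the deeper pair. The same values over 5742 3'UTR peaks, which span a wider range of heights, were 0.57, 0.61 and 0.68. The peaks share their library and its depth, and these values are descriptions.

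The local background around CDS peaks lay between those of 3'UTR and intron peaks, except 100 nt upstream, where CDS and intron peaks overlapped. Counted per library, the tags at CDS peaks made up 38.7%, 38.5% and 39.9% of all tags within 500 nt of them (39.1 ± 0.775%, SD, n = 3), against 21.4 ± 0.451% at 3'UTR and 50.2 ± 1.48% at intron peaks. Neighbouring peaks of the same transcript count into these flanks, and the flanks of a CDS peak can reach into introns. At 50 nt downstream of the centre, coverage had dropped to 9.79 ± 0.130% of that at the centre for CDS peaks, to 17.2 ± 1.09% for 3'UTR peaks and to 5.62 ± 0.289% for intron peaks (SD, n = 3). At 100 nt it was 4.59 ± 0.325% upstream and 7.26 ± 1.26% downstream of CDS peaks, 15.8 ± 0.374% and 15.9 ± 0.755% for 3'UTR peaks, and 4.23 ± 0.413% and 4.06 ± 0.423% for intron peaks (SD, n = 3). The 3 libraries did not overlap between CDS and 3'UTR peaks at any of these distances.

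**Figure D3:**
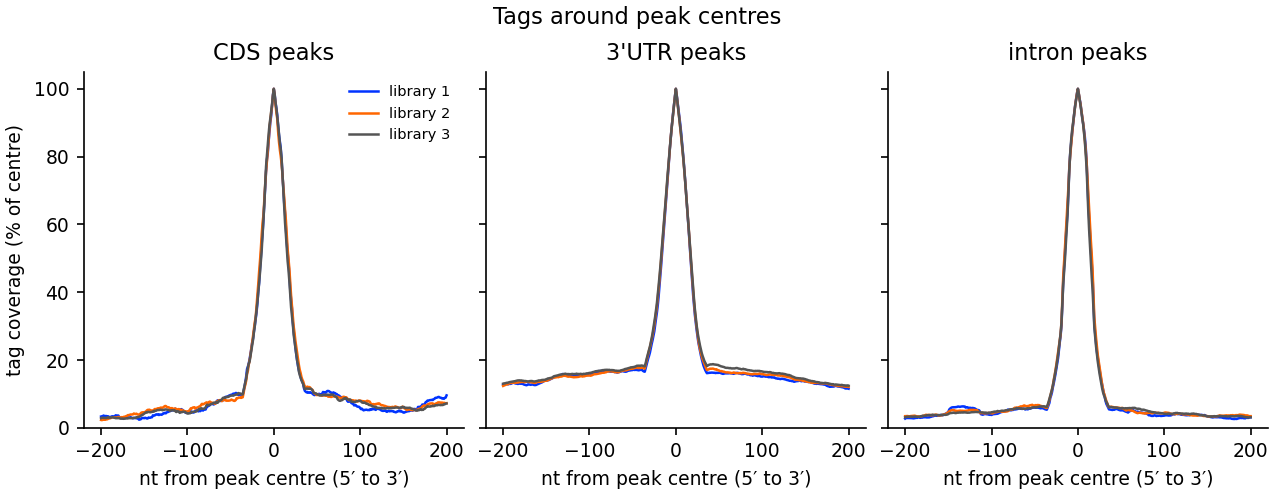
Mean tag coverage as a percentage of that at the peak centre (vertical axis) by distance from the centre in nt, in transcript direction (horizontal axis), for CDS, 3'UTR and intron peaks. Lines are the 3 libraries, which lie close together; coverage 100 nt from CDS centres is 4.59% upstream and 7.26% downstream, below the 15.8% and 15.9% of 3'UTR peaks.

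The peaks themselves were narrow flat tops, with a median width of 11 nt and a range of 1 to 36 nt, against medians of 7 nt in 3'UTRs and 20 nt in introns. Annotated repeats held 16 CDS peaks (2.36%), against 3.64% of 3'UTR, 29.5% of intron and 12.4% of all peaks. Of these, 10 were in simple repeats. They include the Pclo peak, both peaks of Polr2a, which encodes the largest subunit of RNA polymerase II (height 17 and 13), and all 3 peaks of Paxip1, a protein of the DNA damage response. Polr2a and Paxip1 were singled out after their values were seen.

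CDS peaks were mostly 1 to a gene. Of the 581 genes, 506 had 1 CDS peak, 59 had 2 and 16 had 3 or more. Of the 171 peaks that shared a gene, 86 lay within 500 nt of another CDS peak and 39 within 100 nt, in genomic distance. Tags were up to 39 nt long, so the closest peaks can share tags.

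Rere, a transcriptional corepressor of the atrophin family, had the most, with 6 peaks between 149989030 and 149989768 on chromosome 4. All 6 had tags in each library, with heights of 8 to 20, and their summed level was 101, 110 and 105 CPM, nearly the same in the 3 libraries. The next were Ankrd17, an ankyrin-repeat protein, and Huwe1, a large ubiquitin ligase, with 4 each. Ankrd17 had summed levels of 50.3, 85.9 and 56.7 CPM, and Huwe1 50.3, 38.2 and 53.8.

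Arid1a, a subunit of the BAF chromatin remodelling complex, had peaks of height 23, 19 and 16 close together on chromosome 4 (133276581 to 133276829), with 101, 100 and 74.7 CPM summed. Nsd1, a histone methyltransferase, had heights of 16, 6 and 6, and Wac, an adaptor for histone H2B ubiquitination, had a highest peak of 29. Mtap1a, Nckap1, March6 and Ptprz1 complete the 10 genes with the most peaks. March6 had 126, 66.8 and 80.6 CPM summed, and Ptprz1 81.7, 33.4 and 65.7, both with library 1 the highest and library 2 the lowest.

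Genes with CDS peaks often lacked a 3'UTR peak. Of the 581 genes, 200 (34.4%, 95% exact interval 30.6 to 38.4%) also carried a 3'UTR peak. Over all 4804 genes with any peak the share was 62.8%, but that background holds every gene listed for a 3'UTR peak alone. Among 1679 genes with an intron peak, 392 (23.3%, interval 21.3 to 25.4%) had a 3'UTR peak. Seen from the other side, 6.63% of the 3017 genes with a 3'UTR peak had a CDS peak, and 12.1% of all genes with a peak did. An intron peak was found in 96 CDS-peak genes, and 307 genes (52.8%) had CDS peaks and no peak of another class.

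The share with a 3'UTR peak rose with the height of the CDS peak. Where a gene's highest CDS peak had 2 to 4 tags, 16 of 175 genes (9.14%, interval 5.32 to 14.4%) had a 3'UTR peak, and at 5 to 9 tags 97 of 274 (35.4%, interval 29.7 to 41.4%). At 10 to 19 tags it was 67 of 102 (65.7%, interval 55.6 to 74.8%) and at 20 or more 20 of 30 (66.7%, interval 47.2 to 82.7%). Genes with intron peaks of the same heights had 10.6%, 37.5%, 60.2% and 51.7%. At matched heights the intervals of CDS-peak and intron-peak genes thus overlapped. The intervals treat genes as separate, although all rest on the same 3 libraries, so the overlap is a description.

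Within the 200 genes that had both, the 3'UTR peak was usually the higher one. The highest CDS peak stood above the highest 3'UTR peak in 42 genes (21.0%), level with it in 23 and below it in 135, and the median ratio of CDS to 3'UTR height was 0.679. By library, CDS was higher in 51, 36 and 38 genes and 3'UTR in 109, 124 and 128. The 3'UTR peak was higher in all 3 libraries for 61 genes and the CDS peak for 5. Across these genes the log2 heights correlated (Pearson's r = 0.69, Spearman's rho 0.714, n = 200). Both heights come from the same libraries, and neither was divided by the transcript's abundance, whose part was not tested.

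The 5 genes with the CDS peak on top in every library were Fth1, Thy1, Nisch, Rere and Usp54. In Fth1 the CDS peak had 225 ± 29.5 CPM against 48.9 ± 13.9 at the 3'UTR peak 81 nt further on (SD, n = 3), and the groups of 3 values did not overlap. In Thy1 the values were 98.5 ± 14.5 and 66.9 ± 21.2 CPM, and library 2 of the 3'UTR (90.7) lay above library 3 of the CDS (86.6). In Nisch they were 48.1 ± 4.28 and 27.5 ± 5.18, and in Rere 29.1 ± 7.93 and 11.4 ± 6.76 CPM (SD, n = 3), without overlap between the sets of 3. Usp54, a ubiquitin-specific protease family member, had 22.1 ± 6.80 against 8.77 ± 3.90 CPM (SD, n = 3), again without overlap. These genes were picked by that order, so it is a description.

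The opposite was seen in Mtap1a, Cpe and Aldoa, among others. Mtap1a had 214, 205 and 182 CPM in the 3'UTR, well above its CDS values. Cpe had 207, 234 and 161 CPM there, against 75.4, 43.0 and 35.8 in the CDS. Aldoa, a glycolytic enzyme, had a CDS peak of height 21 beside a 3'UTR peak of height 155.

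**Figure D4:**
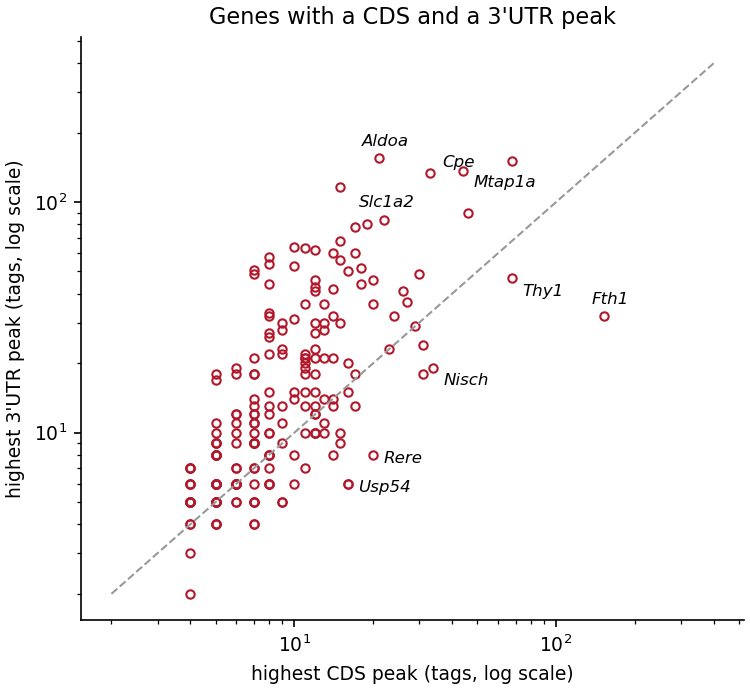
Height of the highest 3'UTR peak (vertical axis, tags, log scale) against that of the highest CDS peak (horizontal axis, tags, log scale) in the 200 genes that had both; each circle is a gene and the dashed line marks equal heights. Most circles lie above the line, and Fth1, Thy1, Nisch, Rere and Usp54 lie below it.

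Of the 381 genes with no 3'UTR peak in the list, the highest CDS peaks were those of Hspa8, Centg1, Nckap1, Gsk3a and Wac. Gsk3a had 62.8, 57.3 and 32.8 CPM on chromosome 7 (26013885 to 26013887) and Wac 31.4, 38.2 and 47.8. A gene without a listed 3'UTR peak can still have tags there. The median height of the highest CDS peak was 5 in these genes and 8 in genes with a 3'UTR peak.

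Where a gene had both, the peaks were rarely neighbours. The nearest 3'UTR peak lay a median of 5943 nt away in the genome, introns included, with quartiles of 1674 and 18462 nt. It was within 200 nt of 12 and within 1000 nt of 41 of the 237 CDS peaks concerned. It lay downstream of the CDS peak in 235 cases. The shortest distance was the 81 nt of Fth1, and Actb followed at 102 nt among the 20 highest peaks. The Pclo peak lay 272108 nt from the nearest 3'UTR peak of its gene. Positions of stop codons and exons were not used here, as no mm9 annotation was at hand.

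**Figure D5:**
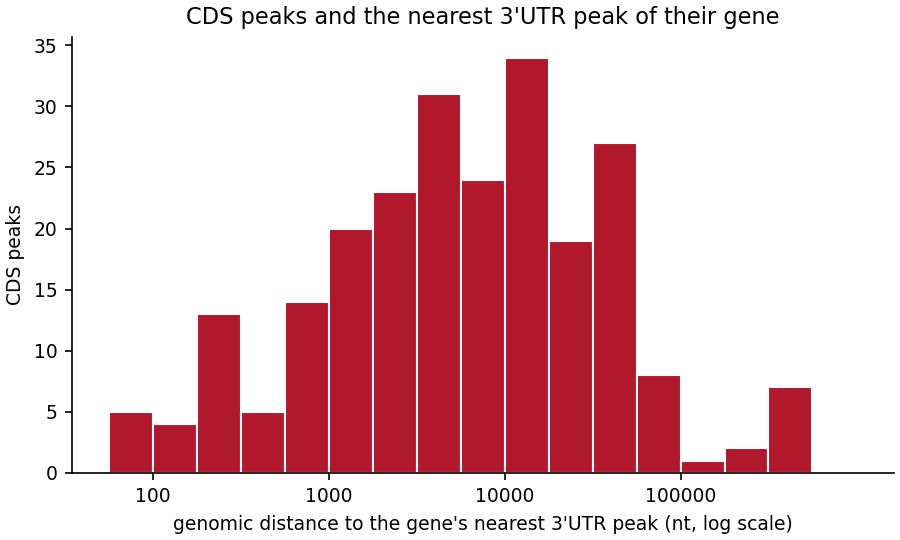
Number of CDS peaks (vertical axis) by genomic distance to the nearest 3'UTR peak of the same gene (horizontal axis, nt, log scale), for the 237 CDS peaks in genes that had one. The median is 5943 nt, and 12 peaks lie within 200 nt.

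Crosslink-induced mutation sites are taken to mark bases where reverse transcription erred at a crosslinked nucleotide. The authors list 557 robust sites, of which 7 are annotated CDS. Within 50 nt of a site lay 6 CDS peaks (0.886%, 95% exact interval 0.326 to 1.92%), against 2.06% of all peaks and 3.27% of 3'UTR peaks. Of peaks with 10 or more tags, 4 of 157 CDS peaks (2.55%, interval 0.698 to 6.39%) were near a site, against 6.93% of 3'UTR peaks and 6.18% of all. Sites were listed with at least 4 mutations, so low peaks can hardly have one.

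The sites beside CDS peaks fell in genes of varied function. In Mtap1a, 6 of 40 tags were mutated at a base 20 nt from the peak. In Thy1 it was 4 of 64, 8 nt from the peak, and in Rplp1, a ribosomal stalk protein, 4 of 13 inside the peak. Tspan7, a tetraspanin, had 4 of 10 at 15 nt. Gpsm1, a regulator of G protein signalling, had 5 of 5 and Terf2ip, a telomere protein, 4 of 4, both inside the peak. In these last 2 every tag at the site carried the mutation, with 3, 1 and 1 tags in libraries 1, 2 and 3 for Gpsm1 and 1, 0 and 3 for Terf2ip. At the other sites beside CDS peaks the mutated share ran from 6.25% in Thy1 to 40% in Tspan7. Whether the mutations in Gpsm1 and Terf2ip arose at a crosslink or were already in the sequence of these mice was not tested.

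Some of these genes also appear in the authors' deposited table of cassette exons that changed in the knockout. Of the 581 genes with a CDS peak, 20 had a cassette exon that changed in the knockout by RNA-seq (3.44%, 95% exact interval 2.12 to 5.27%). The share was 2.83% over all genes with a peak, 3.05% for genes with a 3'UTR peak and 3.93% for genes with an intron peak, so CDS-peak genes are near the background. With genes called by the array added it was 24 genes (4.13%), against 3.91% over all genes with a peak. Among the 20 were Nckap1, Ptprz1, Mbnl2 itself, Grin1 (an NMDA receptor subunit) and Csnk1d (a casein kinase).

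Only 2 CDS peaks lay within 1000 nt of a changed exon, and both lay inside it. In Dock10, an exchange factor for small GTPases, the peak at 80500541 to 80500545 on chromosome 1 sat in the 76 nt exon (80500494 to 80500569). It held 1, 1 and 3 tags in libraries 1, 2 and 3 (6.28, 4.77 and 8.96 CPM), so it rests on few reads. In the authors' deposited table the inclusion of this exon changed by -0.574 (false discovery rate, FDR, 2.19e-22). Which genotype had more inclusion cannot be read from the sign. In Nfix, a transcription factor of the nuclear factor I family, the peak at 87247644 to 87247650 on chromosome 8 sat in an exon (87247627 to 87247749) called by the array alone. It held 3 tags in each library (18.9, 14.3 and 8.96 CPM), and the authors' deposited table gives a change of -0.0928 (FDR 0.00967) by RNA-seq and an array score of -0.54. Binding in the exon and the splicing change were measured in different samples, and their link was not tested.

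Mbnl2 had a CDS peak of its own on chromosome 14 (120784664 to 120784669). It held 4, 5 and 8 tags, or 25.1, 23.9 and 23.9 CPM (24.3 ± 0.723, SD, n = 3), hardly varying between libraries. Its highest 3'UTR peak was of like height, 18 against 17 tags, and the CDS peak lay 10265 nt from the nearest changed exon of the gene.

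Gene groups were then counted against the 12.1% of all genes with a peak that had a CDS peak. All 7 lists lay above that share, from 14.8% to 33.3%, so this is not particular to any of them. The lists were chosen with earlier results of these data known, and transcript abundance was not taken into account. Of 33 postsynaptic receptors, channels and scaffolds with any peak, 10 had one in coding sequence (30.3%). They included Grin2b, an NMDA receptor subunit with 37.7, 23.9 and 32.8 CPM and no 3'UTR peak, and Grin1 with 31.4, 28.6 and 14.9 CPM. Of these 10 genes, Grin2a, Shank3, Cacna1a and Grin2b had no 3'UTR peak.

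Of 29 cytoskeletal and motor genes with any peak, 6 had a CDS peak (20.7%), led by Mtap1a, Actb (62.8, 28.6 and 38.8 CPM), Mtap1b (31.4, 4.77 and 8.96) and Ank3, an ankyrin of the axon initial segment (12.6, 9.55 and 5.97). All 29 also had a 3'UTR peak. Of 25 synaptic vesicle genes, 4 had one (16.0%): Pclo, with 69.1, 28.6 and 41.8 CPM, Sv2a, Unc13a and Slc17a7, the vesicular glutamate transporter (6.28, 14.3 and 11.9 CPM). Of 27 RNA-binding and translation genes, 4 had one (14.8%), namely Mbnl2, Eef1a1 (a translation elongation factor), Srrm2 (a splicing matrix protein) and Pabpc1 (the poly(A)-binding protein). Eef1a1, Actb and Tuba1a belong to families with near-identical copies, and their tags are uncertain between copies.

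Smaller groups were chaperones and protein turnover with 3 of 9 genes (Hspa8, Hsp90ab1 and Usp9x), energy metabolism with 4 of 14 (Slc1a2, Aldoa, Cox4i1 and Atp5a1) and myelin with 2 of 8, among them Cnp, a myelin enzyme, with 18.9, 9.55 and 14.9 CPM. Summed over CDS peaks, chaperones held 201, 81.2 and 56.7 CPM in libraries 1, 2 and 3, highest in library 1 and lowest in library 3. Most of that sum came from Hspa8, with 151, 62.1 and 35.8 CPM. The same order of libraries held for cytoskeletal genes (245, 162 and 149 CPM), synaptic vesicle genes (119, 81.2 and 71.7) and the myelin list. All CDS peaks together also had this order, with 0.868%, 0.807% and 0.768% of the unique tags of libraries 1, 2 and 3. The order is thus not particular to these lists, but its size differed. The fall from library 1 to library 3 was steeper in each of these lists, as in the 201 to 56.7 CPM of chaperones. That order did not hold for postsynaptic genes (226, 181 and 194 CPM), RNA-binding and translation genes (81.7, 62.1 and 105) or the energy metabolism list (88.0, 134 and 98.5). Much of the last sum came from Slc1a2, a glutamate transporter that the list holds and no enzyme of energy metabolism, with 69.1, 76.4 and 41.8 CPM over 2 peaks. The part of the cell makeup of the libraries in these values was not tested.

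Among cell type markers, 2 of the 4 oligodendrocyte markers with any peak had a CDS peak, with the highest summed level in library 1 and the lowest in library 3. Of the astrocyte markers with any peak it was 1 of 5, Slc1a2 again. None of the 6 neuron markers had a CDS peak, while all 6 had a 3'UTR peak and 2167 ± 424 CPM over peaks of all classes (SD, n = 3). Of endothelium and choroid plexus, 1 of 3 markers with any peak each (Pecam1, height 4, and Folr1, height 3) had a CDS peak. Only 1 of the 5 microglia markers had any peak, and it had none in CDS. Over all genes with a peak the share with a CDS peak was 12.1%, and lists of 1 to 6 genes are too short to be set against it. In bulk tissue, fewer cells of a type and less RNA per cell cannot be told apart.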

How the data were processed

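CLIP tags of 3 wild-type hippocampus libraries were aligned by the authors to mm9; the submitters' processing notes name Novoalign, with no settings. The authors deposited 1 line per unique tag and a list of peaks at P below 0.01 after Bonferroni correction, called on pooled libraries, with heights as counts of tags, per the file headers. Mutation sites carry counts of tags and mutations and an FDR of at most 0.001, per the file headers. Exon inclusion changes, array scores and FDRs are the authors' deposited values; that FDR is not capped at 1 and was treated as a score. 1 line of the peak list was emptied before use.

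Tags were counted on the peak's strand by any overlap, and divided by unique tags (CPM). Heights recounted from the tags matched the authors' deposited heights exactly at each of the 10407 peaks. Gene names are the authors'; all 581 CDS gene IDs matched the RefSeq table of GRCm38.p6, which was used for current symbols only. A pseudocount of 5 CPM was used for log2 values. Class medians were compared within libraries by an exact sign-flip permutation test; shares carry 95% Clopper-Pearson intervals. The 20 highest CDS peaks, the 10 genes with the most peaks, those near sites or changed exons, and members of 7 gene lists and 6 marker lists were named by rule. Members and lists were chosen with earlier results of these data known. No mm9 genome was used, so the planned motif count was left out. Some genes among the named ones are not reported here. Replicates may be partly technical. The counting was tested on simulated data. Counting used pandas 2.3.3 and numpy 2.4.6 under Python 3.11.15; tests used scipy 1.17.1, and plots matplotlib 3.10.9.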

Additional observations from a re-analysis of the deposited data

Results flagged for a closer look

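Tags on the Y chromosome appeared in all 3 CLIP libraries, which are labelled female: 31 in library 1, 49 in library 2 and 86 in library 3, above the 3 tags that a count of 0 allows. They were singled out because they lie outside the comparisons and would not be expected under a female label. Listed peaks on this chromosome were 2 in Ddx3y (5'UTR, height 7, and CDS, height 5) and 1 in Eif2s3y (intron, height 3), each with tags in every library. The source of these tags was not tested.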

How the results depend on the processing

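The share of CDS peaks with tags of all 3 libraries was 64.7% and depended most on how tags were assigned: 24.8% by tag centre, 27.6% with at least 2 tags per library and 96.8% at height 10 or more. CDS peaks had a median width of 11 nt, so tags that overlap a peak often have their centre outside it. Leaving out 1 library gave 66.2% to 85.2%, highest without library 1. Peaks outside annotated repeats, an alternative chosen after seeing the data, gave 64.4%. The CDS share of tags at peaks, 5.25%, was 6.37% by tag centre, 6.11% with mixed annotations added and 3.96% at height 10 or more. By tag centre, a count that depends on peak width, the level differences of CDS from 3'UTR and from intron peaks, -0.44 and 0.31, were both 0 (exact sign-flip permutation test, p = 1). They were -0.25 and 0.059 at height 10 or more and -0.60 and 0.46 with a pseudocount of 1. Leaving out 1 library gave -0.52 to -0.34 and 0.17 to 0.46. The share of CDS-peak genes with a 3'UTR peak, 34.4%, was 65.9% for CDS peaks of height 10 or more, 20.7% for 3'UTR peaks of that height and 43.1% for CDS peaks with tags of all 3 libraries. The share near a mutation site was 2.55% and that of genes with a changed exon 5.30% at height 10 or more, where fewer peaks count. The cause of the other shifts was not tested. No paired analysis was possible because the deposited splicing values of the RNA-seq samples have no column per sample. The replicate numbers in the labels are shared by CLIP and RNA-seq samples, but do not show that these came from the same animals. Peak classes were compared within each library. Low depth limits peaks under 10 tags most.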
